A study of Mus musculus with 84 samples.

Results

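Promoters carrying unusually broad domains of trimethylated lysine 4 of histone H3 (H3K4me3) were identified in labelled mouse adipocytes and followed across diet groups. A gene was counted when a single H3K4me3 peak of 4000 bp or wider touched the window of 2000 bp on either side of one of its transcription start sites (TSS) in 5 or more of the 10 control libraries. The members were thus chosen by measured H3K4me3 peak widths of control libraries. The rule held for 3215 of 41438 promoter windows of protein-coding genes, which belonged to 1617 of 21851 genes (7.40%). Their broad peaks formed 1340 separate regions, and 510 of the genes shared a broad peak with another of the 1617, so neighbours in such a region are not independent measurements. A further 11319 genes had an H3K4me3 peak in 5 or more control libraries without meeting the width rule and served as the comparison.

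All mice were AdipoERCre x NuTRAP animals, in which a tamoxifen-inducible Cre under control of the adiponectin gene promoter switches on a biotin tag on adipocyte nuclei. They received tamoxifen at an age of 4 to 5 weeks, followed by a washout of 2 weeks. In the 12-week cohort, C mice were chow-fed and 18 weeks old, and H mice had 12 weeks of high-fat diet (60% of calories from fat) and were also 18 weeks old. CC_s mice were chow-fed and 26 weeks old, and HC mice had 12 weeks of high-fat diet, then 8 weeks of chow, and were 26 weeks old. In the 25-week cohort, CC_l mice were chow-fed and 31 weeks old and HH mice were kept on high-fat diet for 25 weeks to the same age, whereas CCC mice were chow-fed and 39 weeks old and HHC mice had 25 weeks of high-fat diet, then 8 weeks of chow, and were 39 weeks old. Tagged nuclei were pulled down from epididymal fat, and histone marks were mapped by CUT&Tag, where a transposase tethered to an antibody cuts and tags the DNA beside a mark. H3K4me3 was read in 3 libraries each of C, H, CC_s, HC and HHC and 2 each of CC_l, HH and CCC. H3K27ac was read in 3 each of C, H, HC, HH and HHC and 2 each of CC_s, CC_l and CCC.

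H3K4me3 is deposited around the TSS of active genes, usually as a narrow peak just downstream of the start. In many cell types a small set of genes carries a much wider domain, and these are often genes on which the identity of the cell depends. Acetylation of lysine 27 of histone H3 (H3K27ac) accompanies active promoters and enhancers, H3K4me1 enhancers, and H3K27me3 regions held silent by polycomb proteins. In fat cells, identity rests on transcription factors such as PPARγ and C/EBPα and on the machinery that makes, coats and breaks down stored triglyceride.

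Sequences of 4 broad promoters and of 2 narrow ones are given to show that breadth went with very different base composition. Lipe (hormone-sensitive lipase) and Adipoq (adiponectin) were among the widest regions, Irs2 (insulin receptor substrate 2) and Fasn (fatty acid synthase) are returned to for H3K27ac, and Rplp0 (a ribosomal stalk protein) and Ndufv1 (a subunit of respiratory complex I) had narrow peaks. Each sequence runs from 250 bases before to 50 bases after the RefSeq start in GRCm38.p6, 5′ to 3′ on the strand of the gene, with CpG dinucleotides in capitals. The intervals are chr7:25390063-25390362 (minus strand) for Lipe, chr16:23146286-23146585 (plus) for Adipoq, chr8:11008880-11009179 (minus) for Irs2, chr11:120824498-120824797 (minus) for Fasn, chr5:115559217-115559516 (plus) for Rplp0 and chr19:4012706-4013005 (minus) for Ndufv1.
Lipe: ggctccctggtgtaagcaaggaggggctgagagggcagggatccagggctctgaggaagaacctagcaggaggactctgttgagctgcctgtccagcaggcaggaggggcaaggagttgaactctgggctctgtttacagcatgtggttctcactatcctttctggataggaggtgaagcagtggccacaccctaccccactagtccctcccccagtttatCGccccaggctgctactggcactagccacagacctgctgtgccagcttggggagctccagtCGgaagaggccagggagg
Adipoq: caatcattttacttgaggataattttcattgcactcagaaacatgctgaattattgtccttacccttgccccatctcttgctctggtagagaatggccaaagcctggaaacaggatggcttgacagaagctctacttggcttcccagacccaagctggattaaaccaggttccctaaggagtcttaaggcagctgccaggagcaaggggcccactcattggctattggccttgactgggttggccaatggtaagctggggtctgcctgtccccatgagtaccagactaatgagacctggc
Irs2: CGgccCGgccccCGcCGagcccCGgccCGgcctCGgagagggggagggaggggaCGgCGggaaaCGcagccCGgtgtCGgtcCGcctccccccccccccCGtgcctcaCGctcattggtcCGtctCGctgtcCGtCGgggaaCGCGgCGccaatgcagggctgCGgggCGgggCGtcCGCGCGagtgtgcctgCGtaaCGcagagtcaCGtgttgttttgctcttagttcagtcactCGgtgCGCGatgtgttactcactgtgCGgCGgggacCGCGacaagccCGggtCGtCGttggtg
Fasn: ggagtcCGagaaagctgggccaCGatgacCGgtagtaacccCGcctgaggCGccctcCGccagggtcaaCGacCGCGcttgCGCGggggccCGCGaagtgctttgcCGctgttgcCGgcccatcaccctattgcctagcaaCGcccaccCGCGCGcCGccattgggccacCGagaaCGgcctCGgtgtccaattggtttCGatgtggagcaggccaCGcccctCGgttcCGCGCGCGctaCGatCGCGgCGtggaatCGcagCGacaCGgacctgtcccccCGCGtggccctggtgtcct
Rplp0: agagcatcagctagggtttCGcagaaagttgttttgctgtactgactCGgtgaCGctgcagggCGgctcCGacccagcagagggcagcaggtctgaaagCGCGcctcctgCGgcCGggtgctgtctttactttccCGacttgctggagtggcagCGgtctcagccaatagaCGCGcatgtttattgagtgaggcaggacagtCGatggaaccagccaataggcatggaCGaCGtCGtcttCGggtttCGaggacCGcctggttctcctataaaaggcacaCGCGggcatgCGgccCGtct
Ndufv1: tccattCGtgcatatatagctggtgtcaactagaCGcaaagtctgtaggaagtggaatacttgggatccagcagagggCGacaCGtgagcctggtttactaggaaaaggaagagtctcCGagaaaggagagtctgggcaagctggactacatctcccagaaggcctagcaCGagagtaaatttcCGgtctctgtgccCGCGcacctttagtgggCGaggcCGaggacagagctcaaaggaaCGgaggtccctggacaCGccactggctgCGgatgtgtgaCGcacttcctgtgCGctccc

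The Adipoq sequence held 0 CpG dinucleotides and that of Lipe 2, although the median control peak was 16347.5 bp wide at Adipoq and 16803 bp at Lipe. The width at Adipoq is given only as listed, since reads of the Cre transgene cannot be told apart from that locus. Irs2 held 41 and Fasn 39, with median control widths of 9261.5 bp and 8951 bp. The narrow promoters lay between these pairs, with 24 CpG and a median control width of 1594.5 bp at Rplp0 and 16 CpG and 1776.5 bp at Ndufv1.

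Across all genes the same windows were read from the genome at the GENCODE starts. The ratio of observed to expected CpG had a median of 0.78 over the 1617 broad promoters and of 0.78 over the other promoters with H3K4me3, against 0.59 over all promoters and 0.21 over promoters without the mark. A ratio under 0.6 was found at 26.9% of the broad promoters, 25.1% of the other marked ones and 51.0% of all promoters. The 47 broad promoters that belong to the adipocyte, lipid or adipokine lists described next had a median of 0.47, and 30 of them (63.8%) lay under 0.6. The 65 promoters with a median control width of 10000 bp or more were in between, with a median of 0.61 and 47.7% under 0.6. Broad promoters as a whole thus had the CpG content of other marked promoters, and those of the fat cell lists a lower one.

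Short motifs were searched on both strands of these windows. GGGCGG, the core of the GC box, was found in 67.6% of broad promoters, 66.3% of other marked promoters and 46.8% of all. CCAAT was present in 37.8%, 36.5% and 37.5%, TATAAA in 8.23%, 5.85% and 12.0%, and the E-box CACGTG in 9.21%, 9.84% and 7.69%. A promoter was counted once per motif, and matches of different motifs may overlap by their end bases. The shares at broad promoters were within 3 percentage points of those at other marked promoters for each motif.

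Width was continuous at the rule's limit. The fifth widest control peak, on which inclusion rests, was 4000 bp at Gnb5, 4001 bp at Ctnna1 and 4003 bp at Foxn2, just inside, and 3996 bp at Rhod and 3995 bp at Atp5a1, just outside. The median over the 1617 genes of the median control width was 4717.5 bp. It was 10000 bp or more at 65 genes, 5000 to 10000 bp at 618 and under 5000 bp at 934. Only 85 genes (5.26%) were broad in all 10 control libraries, while 349 (21.6%) were broad in exactly 5, the smallest number allowed.

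The 7 widest entries were predicted genes at the start of chromosome 9 (Gm10721, Gm17535, Gm10719, Gm10720, Gm10717, Gm10718 and Gm10715), which share 1 peak with a median control width of 29179.5 bp. Peaks of H3K27me3 and H3K4me1 covered them in 20 of 20 and 22 of 22 libraries, and peaks of H3K27ac in 20 or 21 of 21. Marks with opposite associations thus had peaks there in nearly every library, and nothing is read from this block. Sfi1 (a centrosomal protein, chromosome 11) was similar, with a median of 15644 bp and H3K27me3 in 20 of 20 libraries.

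The next widest promoters included genes of triglyceride breakdown and synthesis as well as transcription factors. At Lipe (chromosome 7, 25379527 to 25398710, GRCm38), the control peaks ranged from 12010 to 22812 bp, with H3K27ac in 21 of 21 and H3K27me3 in 0 of 20 libraries. At Pnpla2 (adipose triglyceride lipase, chromosome 7), which shares its peak with Cracr2b, Cd151, Polr2l and Tspan4, the control median was 14461 bp. At Dgat2 (the enzyme of the last step of triglyceride synthesis, chromosome 7) it was 13544 bp. Among transcription factors, Nfib (nuclear factor I/B, chromosome 4) reached 15079 bp, Zfp503 (chromosome 14) 15075 bp, and Bcl6 with the overlapping Gm37419 (chromosome 16) 13726 bp, ahead of Tnrc18 (chromosome 5) with 13479 bp and the nuclear receptor Nr2f2 (chromosome 7) with 13278.5 bp. Each of these lay above 3 times the width that defines a broad peak.

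Adipoq (chromosome 16, 23146536 to 23158028) stood apart from Lipe in its other marks. Its control H3K4me3 peaks ranged from 6272 to 30690 bp, and H3K27me3, the polycomb mark, had a peak there in 19 of 20 libraries. The neighbouring Eif4a2 and St6gal1 belonged to the broad promoters too, and peaks of 4000 bp or wider of each of the 4 marks were found at both in at least 5 control libraries of that mark. Sh3pxd2a, Sp110 and Sp140 were the other genes of this kind. The Cre transgene carries adiponectin regulatory sequence, and its reads cannot be told apart from those of the gene's own locus, so the width at Adipoq is given only as listed.

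Lists of genes by function showed how unevenly the broad domain was distributed (plot of the share of each list). Of 40 genes of lipid synthesis, storage and lipolysis, 35 (87.5%) had a broad promoter, as did 24 of 33 adipogenic transcription factors (72.7%), 24 of 39 immediate early and stress response genes (61.5%), 9 of 16 adipokines (56.3%), 10 of 19 circadian clock genes (52.6%) and 12 of 24 genes of insulin signalling and glucose uptake. These shares compare with 7.40% of all genes. By contrast it was 3 of 35 ribosomal protein genes (8.57%) and 5 of 36 genes of the nuclear-encoded respiratory chain (13.9%), all of which carried H3K4me3 in 5 or more controls. Genes of these housekeeping lists were therefore mostly marked but narrow, as were genes with H3K4me3 in general (11319 narrow and 1617 broad).

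**Figure D1:**
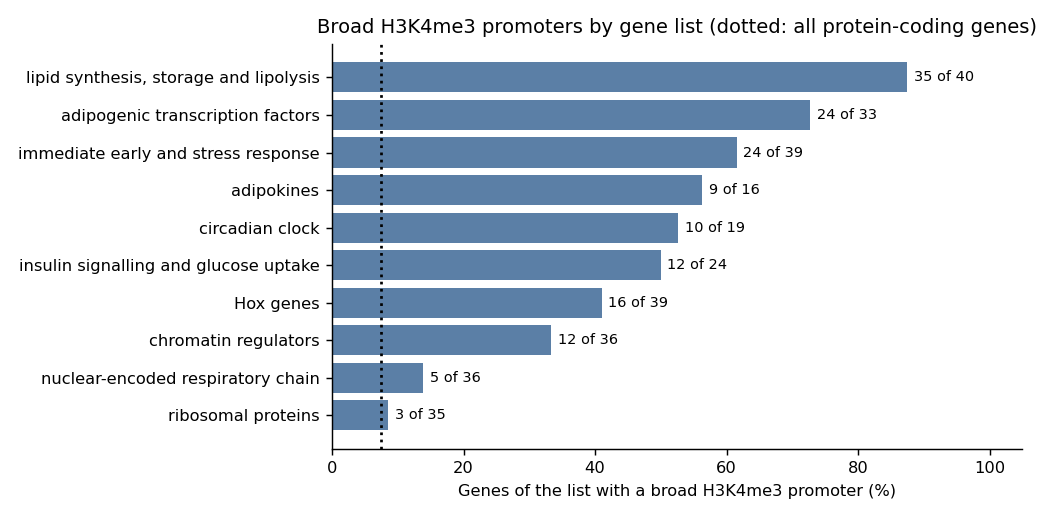
Share of the genes of each list, in percent, that had a broad H3K4me3 promoter, with the dotted line at the share over all protein-coding genes (7.40%). The lipid list reaches 87.5%, whereas ribosomal protein genes stand at 8.57%.

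Markers of cell types drew the same line. All 12 adipocyte markers had a broad promoter, against 0 of 12 macrophage, 0 of 11 lymphocyte, 0 of 10 mesothelial, 0 of 8 mural, 0 of 8 epithelial and 0 of 8 neuronal markers. The exceptions among other cell types were Egfl7, 1 of 10 endothelial markers, and Col3a1, 1 of 10 progenitor markers. The adipocyte list shares genes with the lipid list.

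Within the lists, width followed no single function. The widest of the lipid list after Lipe, Pnpla2 and Dgat2 were Gpd1 (glycerol-3-phosphate dehydrogenase, sharing its peak with Cox14) at 13158 bp, Cav1 (caveolin 1) at 12574.5 bp and Cidec (a protein that fuses lipid droplets) at 11670 bp. Among transcription factors, the glucocorticoid receptor Nr3c1 followed Nfib with 12160.5 bp, then Klf15 with 10538.5 bp, Pparg with 9456 bp, the corepressor Tle3 with 7871 bp and Cebpa with 7587.5 bp. Of the adipokines, Vegfa reached 10479 bp and leptin (Lep) 9839.5 bp. Irs1 (11288 bp) and Pik3r1 (11097 bp), the first adaptor and the regulatory lipid kinase subunit downstream of the insulin receptor, led the insulin list.

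Other regulators had similar widths. The clock repressors Per1, Cry2 and Bhlhe40 stood at 8747, 8628.5 and 8577 bp. Zfp36 (tristetraprolin, which destabilises mRNA, sharing its peak with Plekhg2) stood at 11457 bp. Of the 36 chromatin regulators, 12 were broad, with the methyltransferase gene Setd1b (sharing with Rhof) widest at 12128 bp and the acetyl-lysine reader Brd2 (sharing with H2-DMa) at 9085 bp. Of 39 Hox genes 16 were broad, and Hoxc4, Hoxc5 and Hoxc6 shared 1 domain of 12908 bp. Among 6 further metabolic and immune genes, Gpam (glycerol-3-phosphate acyltransferase, 7160 bp) and Cyp2e1 (6253 bp) were broad in 10 and 9 of the 10 controls, Acacb in 4, and Icam1, Lyz2 and Tyrobp in 0.

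The broad peaks extended mainly into the gene. At the 1107 genes that share no broad peak, the median extent in the control libraries was between 1174 and 2011.5 bp upstream and between 3364 and 4183 bp downstream of the TSS. In each control library, between 80.5% and 85.6% of these peaks were longer downstream than upstream.

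Broad promoters were also more often covered by the marks of activity, which the rule did not use. An H3K27ac peak touched the window at a median of 95.3% of broad promoters (range 68.4% to 99.5%), against 63.2% (23.9% to 85.4%) of other promoters with H3K4me3, and the share was higher at broad promoters in 21 of 21 libraries. Where it was present, its median width in the median library was 3516 bp at broad and 1597 bp at other marked promoters. H3K4me1 peaks were found at 64.5% of broad and 24.7% of other marked promoters, higher in 22 of 22 libraries. H3K27me3 showed the reverse order, with 7.58% against 12.8%, and was higher at broad promoters in 2 of 20 libraries.

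Nearly all broad promoters carried H3K27ac in some control library. It was present in all 9 controls at 1037 (64.1%), against 18.8% of other marked promoters, and in none at 4, namely Zfp988, Phf21b, Slit2 and Fxyd7 (which shares its peak with Fxyd1). At Slit2, which encodes a secreted guidance factor, H3K27me3 was present in 10 of 10 control libraries. The combination of a broad H3K4me3 peak and H3K27me3 in more than 5 of the 10 controls was found at 55 broad promoters (3.401%), against 9.55% of other marked promoters. Apart from the chromosome 9 block, these 55 included several genes, chosen here after their values were seen, such as the developmental factors Prrx1, Nr2f1 and Hoxd3, the nuclear receptors Nr4a2 and Nr4a3, and 2 genes of mature fat, Adrb3 (the beta-3 adrenergic receptor) and Slc7a10. In pooled nuclei, both marks on the same nucleosomes and different marks in different nuclei give the same peaks. Likewise, fewer marked nuclei and less mark per nucleus cannot be told apart.

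Libraries differed in how much of the genome their peaks covered, and the read depth of each library is unknown. H3K4me3 peaks covered 41.03 to 53.4 Mb in C, 11.04 to 30.2 Mb in H, 16.4 to 38.1 Mb in CC_s and 16.5 to 33.4 Mb in HC, and between 50.8 and 100.5 Mb in the 25-week cohort. H3K27ac peaks covered 42.8 to 48.97 Mb in C but 9.60 to 24.4 Mb in H, and the CCC libraries held 94.3 Mb (replicate 1) and 20.9 Mb (replicate 3). Adipocyte markers had H3K4me3 in 12 of 12 cases in all control libraries, in 10 in H replicate 2 and in 9 in HC replicate 3 and HHC replicate 3. Macrophage markers (12) had it in 3, 4 and 4 cases in C, in 10, 10 and 1 in H, in 4 and 4 in CC_l, in 11 and 11 in HH, in 5 and 3 in CCC, and in 11, 9 and 9 in HHC, with 1 to 3 in CC_s and 1 to 6 in HC. Lymphocyte markers (11) reached 7 to 11 in HHC against 1 in each CCC library. Endothelial markers (10) had it in 2, 4 and 6 cases in C, in 9, 8 and 0 in H, in 7 and 3 in CC_l, in 9 and 9 in HH, in 3 and 3 in CCC, and in 5, 8 and 8 in HHC, and mesothelial markers (10) in 4, 4 and 2 in C but in 0 in each H library. Marks of immune and endothelial genes were thus more frequent in several diet libraries and those of mesothelial genes less so in H, and their part in the comparisons that follow was not tested. For 4 H3K4me3 libraries, namely CC_l replicate 2, both of HH and CCC replicate 3, the treatment field gives a group that is not the one in the title, and grouping followed the title.

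The width of the broad promoters varied more between libraries of the 12-week cohort than of the 25-week cohort. Because control libraries chose the genes, these widths are a description and carry no test. In C, 71.2%, 88.6% and 88.5% of the 1617 genes had a peak of 4000 bp or wider. The share was 18.3%, 22.9% and 1.67% in H, 10.3%, 12.5% and 62.8% in CC_s, and 21.03%, 4.21% and 17.1% in HC. In the 25-week cohort it was 67.7% and 97.5% in CC_l, 94.5% and 95.9% in HH, 98.2% and 98.8% in CCC, and 79.5%, 98.0% and 74.2% in HHC. H libraries all lay below C, HC overlapped CC_s, and HH libraries lay within the range of CC_l. CC_s replicates 1 and 2, from chow-fed mice, were as low as the H libraries.

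The broad promoters were then set against all promoters with a peak in the same library. The median width at broad promoters with a peak was 2.09 ± 0.05 times (SD, n = 3) that of all promoters with a peak in C, 1.58 ± 0.12 (n = 3) in H, 1.80 ± 0.19 (n = 3) in CC_s and 1.65 ± 0.16 (n = 3) in HC. In the 25-week cohort it was 2.15 ± 0.02 (n = 2) in CC_l, 1.99 ± 0.09 (n = 2) in HH, 2.16 ± 0.01 (n = 2) in CCC and 1.88 ± 0.13 (n = 3) in HHC. H libraries (1.44 to 1.66) lay below all C libraries (2.04 to 2.14), HH below CC_l and HHC below CCC, while HC and CC_s overlapped. Control libraries chose the genes, which favours a higher ratio in controls, so this order too is a description without a test. CC_s replicates 1 and 2, from chow-fed mice, stood at 1.66 and 1.72, against 2.02 in CC_s replicate 3.

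**Figure D2:**
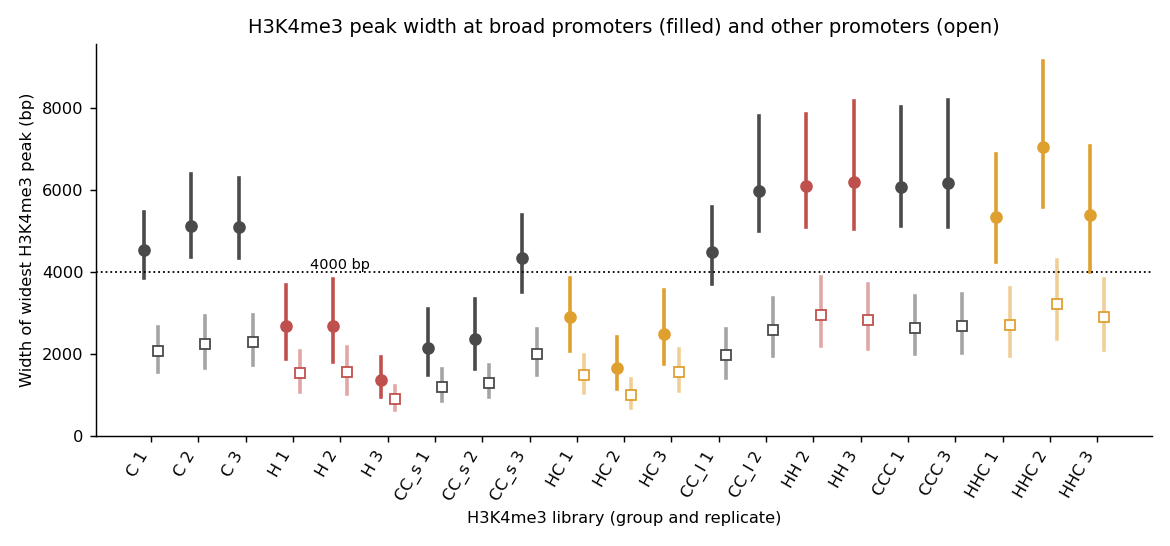
Median H3K4me3 peak width in bp per library at the broad promoters with a peak (filled circles) and at other promoters with a peak (open squares), with bars for the interquartile range, controls in grey, obese groups in red, weight-loss groups in orange, and a dotted line at 4000 bp. The broad promoters sit at 4523 to 5123 bp in C and at 1356 to 2679 bp in H.

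A peak was present at 1438 of the 1617 genes (88.9%) in all 21 libraries, whatever its breadth. Broad in all 5 libraries of HH and HHC were 991 genes (61.3%), and in all 6 libraries of H and HC 10 genes. Those 10 were also broad in every control, and they were Cav1 and 9 genes of the chromosome 9 block (the 7 named above with Gm10722 and Gm11168). Cav1, the main coat protein of caveolae, measured 12093, 12658 and 12684 bp in C, 6396, 7171 and 7202 bp in H, 7457, 7256 and 12491 bp in CC_s, and 4755, 6277 and 4214 bp in HC. Lipe measured 16497, 21033 and 21628 bp in C, 7511, 5754 and 4688 bp in H, 12231, 12010 and 16124 bp in CC_s, and 8321, 6443 and 3887 bp in HC. In the 25-week cohort Lipe measured 16507 and 22812 bp in CC_l, 15911 and 21838 bp in HH, 21373 and 17099 bp in CCC, and 13993, 25647 and 13795 bp in HHC. At both genes the H and HC values lay below those of their controls.

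Pparg, the master regulator of fat cell formation, measured 9408, 8811 and 10024 bp in C, 6664, 6416 and 2878 bp in H, 5655, 3229 and 10588 bp in CC_s, and 3202, 3461 and 1630 bp in HC. In the 25-week cohort it measured 8182 and 9992 bp in CC_l, 9698 and 10598 bp in HH, 9504 and 11550 bp in CCC, and 7197, 11312 and 2270 bp in HHC. Its values in H lay below those in C, whereas the other pairs of groups overlapped. Cyp2e1, a cytochrome P450, had a peak in 15 of 21 libraries. It measured 6244, 6772 and 6020 bp in C, 911, 0 and 0 bp in H, 2391, 5016 and 6321 bp in CC_s and 0 bp in all 3 HC libraries, where 0 means no peak. Its widths in the 25-week cohort were 5597 and 6262 bp in CC_l, 3640 and 5764 bp in HH, 7640 and 7243 bp in CCC, and 5047, 6797 and 0 bp in HHC. A peak was thus called in 1 of the 6 libraries of H and HC and in all 10 control libraries.

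H3K27ac across the diet groups was compared next, since the rule did not use it. The measure was the number of base pairs within 5000 bp of the TSS that peaks of H3K27ac covered, which cannot exceed 10001 bp. It was taken as log2(bp + 500), centred in each library on its median over the 2142 promoters covered in all libraries, and tested by limma over 11513 promoters covered in 7 or more of the 21 libraries, of which 1613 were broad promoters. Differences are on this centred log2 scale unless base pairs are named, and adjusted p-values are Benjamini-Hochberg values over all 11513. A passing value was an adjusted p under 0.05. Libraries are labelled as replicates of a group, and p-values measure the spread between these libraries.

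In H against C, lower H3K27ac was the main direction at broad promoters. Of the 1613, 37 were lower (2.29%) and 6 higher (0.372%), against 0.504% lower and 0.695% higher of all promoters tested. At an unadjusted p under 0.05 the shares were 19.1% lower and 4.53% higher among broad promoters, and 5.76% and 13.9% among all. The median difference was -0.24 (interquartile range -0.71 to 0.18) at broad promoters and 0.24 over all. Without centring, the median over all promoters was -0.89 and that over broad promoters -1.36, with 654 broad promoters lower and 0 higher. The median was thus lower at broad than over all promoters with and without centring, which shifts all promoters of a library by the same amount. The H libraries had the smaller coverage given above, and H3K27ac peaks were wider at broad promoters (3516 bp against 1597 bp at other marked promoters). Whether smaller coverage lowers the measure more at wide than at narrow regions was not tested. With equal numbers of peaks taken from each library, 15 were lower and 1 higher. Only 6 of these 16 were among the 43 that passed in the main fit.

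**Figure D3:**
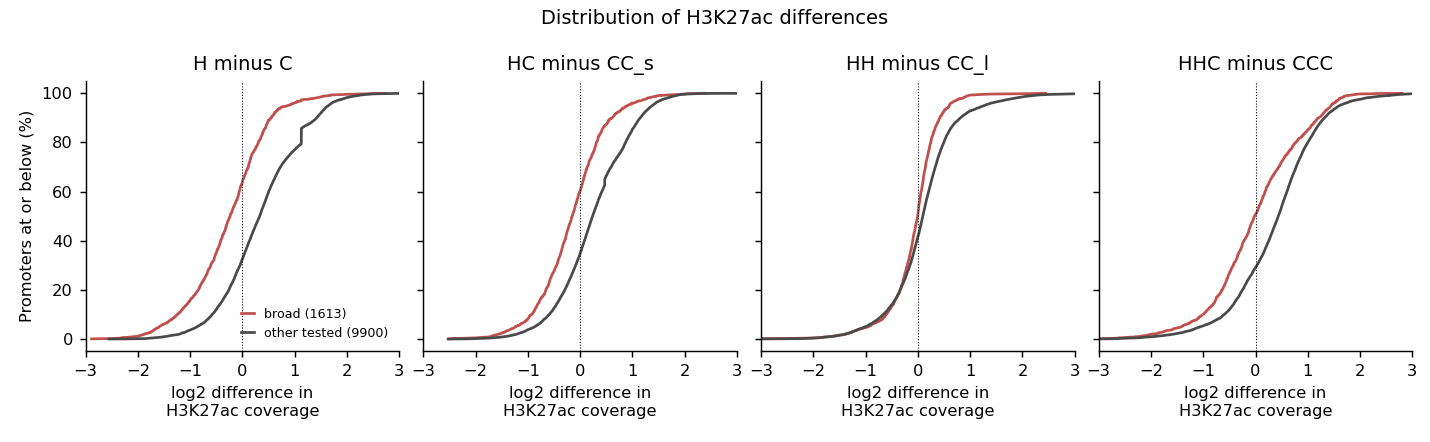
Cumulative share of promoters by log2 difference in H3K27ac coverage for each of the 4 comparisons, for broad promoters and for the other promoters tested. In H against C the broad promoters lie to the left, with medians of -0.24 at broad promoters and 0.24 over all promoters.

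Several of the 37 are genes of fat synthesis. Acly, which makes cytosolic acetyl-CoA, had 5256, 5784 and 4686 bp covered in C and 410, 694 and 362 bp in H (log2 difference -1.42 ± 0.31 (SE), limma adjusted p = 0.0332). Fasn had 7351, 8234 and 7330 bp in C and 1521, 0 and 784 bp in H (-1.77 ± 0.43 (SE), limma adjusted p = 0.0464). Agpat2, an acyltransferase of triglyceride synthesis, had 9451, 9971 and 8319 bp in C and 3181, 141 and 778 bp in H (-1.63 ± 0.36 (SE), limma adjusted p = 0.0357). The groups did not overlap at any of these genes, and each H library was below the lowest C library by several kilobases. Thrsp, a lipogenic nuclear protein, fell by 1.42 on the log2 scale (± 0.32 (SE), limma adjusted p = 0.0382). These 4 were the members of the lipid list that passed, all lower, of 35 tested. The list's median was -0.30, with 26 of 35 below 0, against a median of 0.24 over all promoters tested. Without H replicate 2 it was -0.12 with 18 of 35 below 0, and without H replicate 3 -0.54. None of the 4 passed with the replicate block, with quantile normalization or without any 1 of the C libraries.

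In the insulin and adipokine lists 1 gene each was lower, and Sh2b2 and Prkag2, which belong to no list, are given beside them. At Irs2, 8242, 6806 and 5215 bp were covered in C and 340, 0 and 0 bp in H (-2.46 ± 0.47 (SE), limma adjusted p = 0.0153), 1 of 12 in the insulin list. At Cfd (adipsin, a complement protease secreted by adipocytes), 8907, 8325 and 5789 bp were covered in C, and it was listed at 0 in all 3 H libraries (limma adjusted p = 0.0107), 1 of 9 adipokines. Sh2b2, an adaptor of the insulin receptor, had 6335, 5605 and 4902 bp in C and 0, 0 and 388 bp in H (-2.20 ± 0.38 (SE), limma adjusted p = 0.00781). Prkag2, a subunit of the AMP-activated kinase, had 7168, 6767 and 5804 bp in C and 810, 345 and 770 bp in H (-1.53 ± 0.28 (SE), limma adjusted p = 0.012). No H library reached the lowest C library at any of them. Neither Irs2 nor Cfd passed with a window of 2000 bp, with equal numbers of peaks, or without C replicate 1, C replicate 2 or H replicate 1, nor did Irs2 without H replicate 2.

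The promoters with the smallest p-values were of mixed function. Gde1 (a glycerophosphodiester phosphodiesterase), Lag3 (an immune receptor gene that shares its peak with Ptms) and Qsox1 (a sulfhydryl oxidase) were listed at 0 in all 3 H libraries. In C they had 5975, 6170 and 4598 bp, 5239, 5182 and 4408 bp, and 3708, 4509 and 2512 bp covered (limma adjusted p = 0.000331, 0.00337 and 0.00618). Baiap2, an adaptor between signalling and actin, had 4343, 5302 and 3400 bp in C and 618, 0 and 0 bp in H (-1.75 ± 0.30 (SE), limma adjusted p = 0.00781). In all, 7 of the 37 were listed at 0 in all 3 H libraries and 24 in at least 1, which is a peak not called rather than a mark shown to be absent. Hoxc4, in the Hoxc domain, was another of the 7 (5804, 7772 and 7207 bp in C, limma adjusted p = 0.012). The remaining lists had no member that was lower.

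The 6 higher promoters came from 3 places. Hist1h2bj, Hist1h2ag and Hist1h4i share 1 region of a histone cluster whose copies are nearly alike, so their reads are uncertain. They were listed at 0 in all 3 C libraries and had 629 to 2210 bp in H (limma adjusted p = 0.00781). Vat1 and Rnd2 share a peak and were listed at 0 in C against 1682, 1060 and 0 bp in H (limma adjusted p = 0.0468). At Zfp36 the covered length was 9571, 9638 and 9325 bp in C and 9228, 6798 and 6975 bp in H, so the centred difference of 0.82 ± 0.20 (SE) (limma adjusted p = 0.04995) was -0.31 without centring and has no firm direction.

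**Figure D4:**
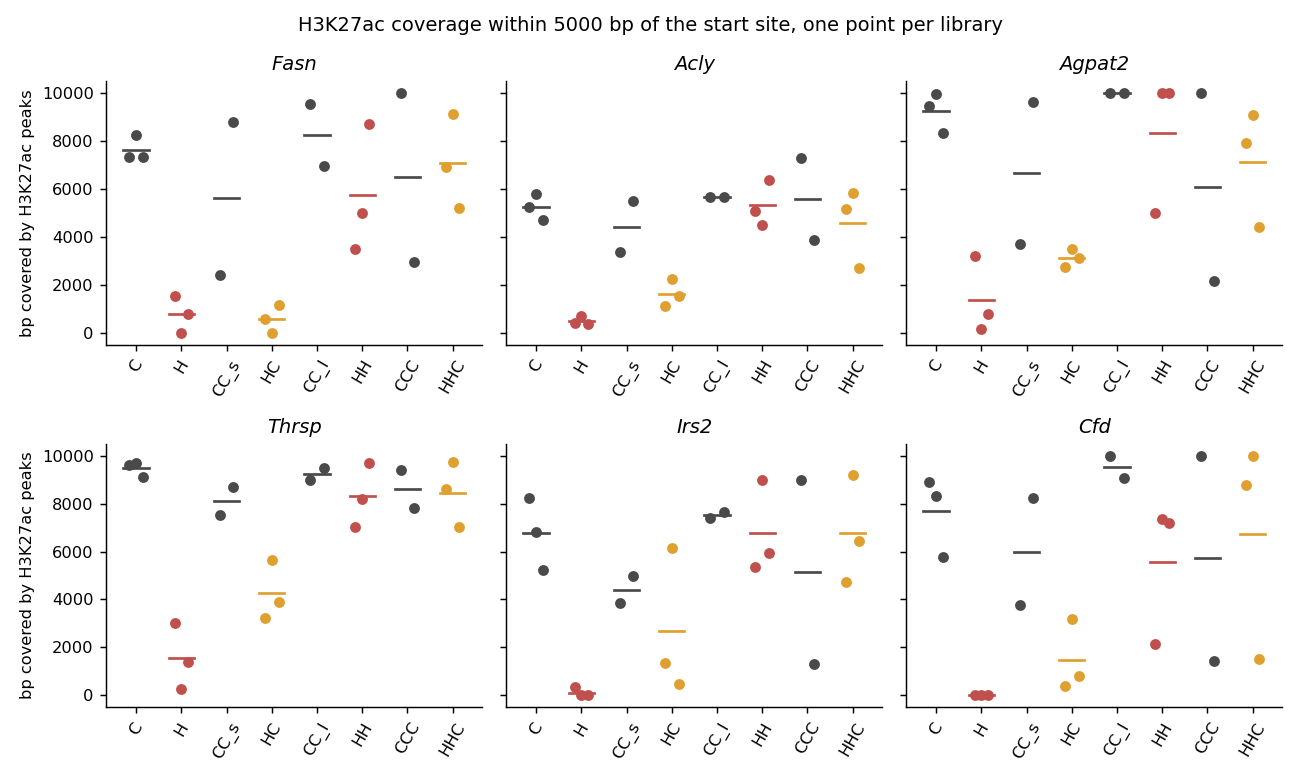
Base pairs covered by H3K27ac peaks within 5000 bp of the TSS for Fasn, Acly, Agpat2, Thrsp, Irs2 and Cfd, with 1 point per library and a line at the mean of each group. H libraries lie at 0 to 3181 bp at these 6 genes, below every C library.

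The count of lower promoters rested on few libraries. It was 3 without C replicate 1, 2 without C replicate 2, 21 without C replicate 3, 19 without H replicate 1, 14 without H replicate 2, 24 without HHC replicate 1 and 67 without HC replicate 3. HC and HHC libraries are not part of this contrast and enter it through the filter, the centring and the shared estimate of spread. In H replicate 3, which has the lowest H3K27ac coverage of the study, 1 macrophage marker carried H3K27ac, against 3 in each C library and 8 and 6 in the other H libraries.

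The 37 promoters were then followed in the other comparisons, which use other libraries. After weight loss in the 12-week cohort (HC against CC_s), 34 of 37 were below 0, with a median of -0.66, against 60.3% of all broad promoters and 38.3% of all promoters. Of these, 13 were lower at an unadjusted p under 0.05 and none passed the limma adjusted threshold. H3K27ac peaks covered 11.6 to 34.7 Mb in HC and 25.2 to 43.8 Mb in CC_s, and the part of coverage in these values was not tested. In HH against CC_l, 30 were below 0 with a median of -0.20 and 1 at an unadjusted p under 0.05, and in HHC against CCC 27 were below 0 with a median of -0.20 and 4 at that level, against 50.7% of all broad promoters in either. Over all promoters, 42.9% were below 0 in HH against CC_l (median 0.08) and 32.1% in HHC against CCC (median 0.38). The median over all promoters in HC against CC_s was 0.18. The median of the 37 was thus farthest from 0 in HC against CC_s. It lay below the median over all promoters in each of these comparisons. Fasn had 2418 and 8795 bp covered in CC_s and 570, 0 and 1160 bp in HC (-1.97 ± 0.48 (SE), limma adjusted p = 0.265). It had 9548 and 6955 bp in CC_l and 3490, 4987 and 8725 bp in HH (-0.45 ± 0.48 (SE), limma adjusted p = 0.9993), where the groups overlapped. Hoxc4 had 4071 and 4978 bp in CC_s and 0, 1403 and 0 bp in HC (-2.21 ± 0.56 (SE), limma adjusted p = 0.284).

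Irs2 differed from Fasn in this. It had 3855 and 4961 bp covered in CC_s and 1369, 6161 and 469 bp in HC, 7389 and 7652 bp in CC_l and 5351, 8974 and 5945 bp in HH, and 8970 and 1316 bp in CCC and 4739, 9188 and 6429 bp in HHC. Values overlapped in these 3 comparisons (-0.62 ± 0.53, -0.06 ± 0.53 and 0.05 ± 0.53 (SE), limma adjusted p = 0.6996, 0.9993 and 0.957).

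In HC against CC_s as a whole, no broad promoter passed the limma test, and none of all promoters did (0% called). At an unadjusted p under 0.05, 46 were higher and 108 lower (2.85% and 6.7%, against 5.58% and 2.81% of all promoters). The median was -0.15 at broad promoters and 0.18 over all. The smallest adjusted p, 0.137, was shared by several genes. Among them was Aacs, acetoacetyl-CoA synthetase, an enzyme that feeds ketone bodies into lipid synthesis, with 4446 and 6117 bp in CC_s and 329, 831 and 1364 bp in HC (-1.70 ± 0.35 (SE)). Lrig1, a receptor-binding membrane protein, had 5086 and 4916 bp in CC_s and 768, 632 and 435 bp in HC (-1.85 ± 0.38 (SE)). Both sets of values were apart without passing over all promoters. Without H replicate 3, 1 broad promoter was lower and 1 higher, and without CCC replicate 1 or CCC replicate 3, 1 was lower.

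In HH against CC_l, 2 broad promoters were lower and 0 higher, against 0.0347% and 0.235% of all promoters tested. Ptges, which encodes a prostaglandin E synthase, had 7832 and 4805 bp in CC_l and 0, 337 and 0 bp in HH (-3.37 ± 0.50 (SE), limma adjusted p = 0.00677). Hoxa5, sharing its broad peak with Hoxa3, Hoxa6, Hoxa7 and Gm28308, had 9288 and 7775 bp in CC_l and was listed at 0 in all 3 HH libraries (limma adjusted p = 0.0216). At both, all HH libraries were far below CC_l. The median over broad promoters was -0.00 and over all promoters 0.08. Of 15 Hox genes tested, 13 were below 0 with a median of -1.21. Without either CC_l library no broad promoter was called, and without HH replicate 1 or HH replicate 2 1 was. Neither passed without centring or with a pseudocount of 100 bp.

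In HHC against CCC, 2 were lower and 0 higher, against 0.0434% and 0.00869% of all promoters. Rnf144b, an E3 ubiquitin ligase gene, had 8403 and 5624 bp in CCC and 1777, 2678 and 1905 bp in HHC (-2.22 ± 0.36 (SE), limma adjusted p = 0.0248). Ptges had 6761 and 2956 bp in CCC and 1164, 1845 and 0 bp in HHC (-2.72 ± 0.50 (SE), limma adjusted p = 0.0438). Acaca, the acetyl-CoA carboxylase that commits carbon to fatty acids, had 7931 and 5354 bp in CCC and 0, 3276 and 0 bp in HHC (-3.55 ± 0.73 (SE), limma adjusted p = 0.0646). The groups were apart at each. Ptges was low in all diet groups, with 3826, 2502 and 2588 bp in C and 0 in each library of H and HC, and CC_s at 1051 and 2172 bp.

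The count in HHC against CCC depended on CCC replicate 3, whose H3K27ac coverage was the smaller by far. Without CCC replicate 1, so that replicate 3 stood alone, 195 broad promoters were higher and 39 lower, and without CCC replicate 3 none was called. None was called without HHC replicate 1, HHC replicate 3, C replicate 1, H replicate 2 or H replicate 3 either, and 1 was without C replicate 2, C replicate 3, either CC_s library, HC replicate 1, HC replicate 2 or HH replicate 2. Without HHC replicate 2, 23 were lower and 1 higher, and without HC replicate 3, 3 lower and 1 higher. Neither gene passed with a window of 2000 bp or a pseudocount of 100 bp, and without centring 4 were higher and 0 lower.

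The lists gave a pattern in this comparison although none of their members passed. Of the 35 lipid genes, 34 were below 0 with a median of -0.75, as were 12 of 12 adipocyte markers (-1.24) and 9 of 9 adipokines (-1.37), while the median over all promoters was 0.38. Without centring, 18 of the 35 lipid genes were below 0 and their median was -0.03, and 8 of the 12 adipocyte markers were. Immediate early and stress genes had 7 of 24 below 0 and a median of 0.62, and chromatin regulators 2 of 12 and 0.50. Leaving out CCC replicate 3 left the lipid list at 34 of 35 below 0 (median -0.52) and the adipocyte markers at 12 of 12 (-0.71), but took the immediate early list to 9 of 24 and 0.11 and the chromatin regulators to 6 of 12 and 0.03, and without CCC replicate 1 the latter had a median of 0.76. In HHC replicate 3, 8 of 12 adipocyte markers carried H3K27ac, and without it the lipid list had 33 of 35 below 0 (-0.64), the markers 12 of 12 (-0.77) and the adipokines 8 of 9 (-0.73). In the other comparisons the lipid list had a median of -0.30 (H against C), -0.44 (HC against CC_s, 28 of 35 below 0) and -0.16 (HH against CC_l, 23 of 35). In HC against CC_s it was -0.22 without HC replicate 3 (24 of 35) and -0.76 without HC replicate 2. The adipocyte markers went from -0.54 (10 of 12 below 0) to 0.10 (5 of 12) without HC replicate 3. The adipokines went from -0.83 (8 of 9) to -0.13 (5 of 9). In that library 9 of 12 adipocyte, 7 of 12 macrophage and 7 of 10 endothelial markers carried H3K27ac. In HH against CC_l the lipid list lost its direction without HH replicate 1 (0.02, 15 of 35). Its median was -0.07 without CC_l replicate 2, -0.31 without CC_l replicate 1, -0.25 without HH replicate 2 and -0.32 without HH replicate 3. HH replicate 1 had H3K27ac at 9 of 12 adipocyte, 7 of 12 macrophage and 8 of 10 endothelial markers. Without it the adipocyte markers went from -0.33 (9 of 12 below 0) to 0.04 (2 of 12), and the adipokines from -0.65 (9 of 9) to 0.04 (4 of 9).

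**Figure D5:**
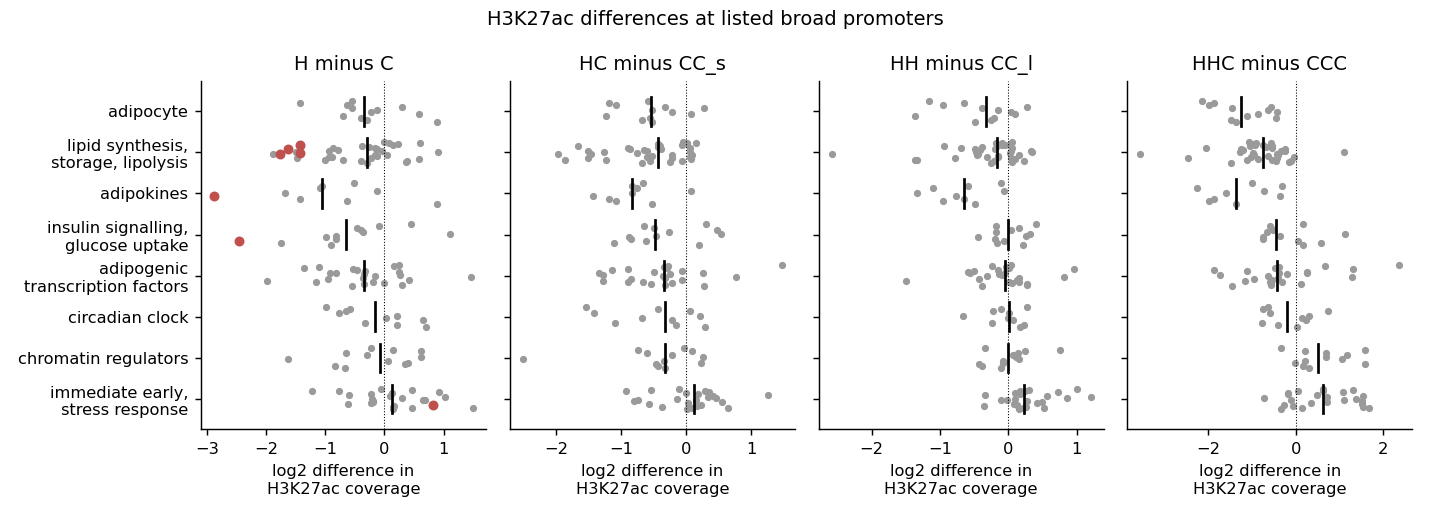
Log2 differences in H3K27ac coverage of the broad promoters in each list for the 4 comparisons, with 1 point per gene, a black bar at the median and red for genes with an adjusted p under 0.05. In HHC against CCC the lipid list has a median of -0.75 and the immediate early list of 0.62.

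Whether the effects differed between cohorts was tested with interaction terms. Neither H minus C against HH minus CC_l nor HC minus CC_s against HHC minus CCC gave a broad promoter that passed the limma test (smallest adjusted p = 0.464 and 0.733). At an unadjusted p under 0.05 there were 20 higher and 85 lower for the first (1.24% and 5.27%, against 4.4% and 1.76% of all promoters). For the second there were 40 and 89 (2.48% and 5.52%, against 1.95% and 4.27%), near the shares over all promoters. Without CCC replicate 1, 49 passed as lower in the second. A larger shift in the 12-week cohort is therefore a description of the values at single genes.

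H3K4me3 width was tested only between libraries that had not chosen the genes. The fit used log2 width at 8575 promoters with a peak in all 21 libraries, centred per library, of which 1438 were broad promoters. Genes with no peak called in some library, such as Cyp2e1, are therefore outside it. It held 7 of the 12 adipocyte markers and 4 of the 9 broad adipokines. In HC against H, neither of which is a control, 4 broad promoters were wider after weight loss (0.278%) and 0 narrower, against 0.128% and 0.0466% of all promoters. Mettl7a1, of the methyltransferase-like family, measured 1987, 1039 and 948 bp in H and 5045, 2533 and 5854 bp in HC (1.68 ± 0.32 (SE), limma adjusted p = 0.0214). Gadd45g, a stress-inducible gene, rose from 2337, 2446 and 1065 bp to 5132, 3075 and 5315 bp (1.19 ± 0.25 (SE), limma adjusted p = 0.0447). 1700017B05Rik was also wider (1.44 ± 0.29 (SE), limma adjusted p = 0.0372). All HC values lay above all H values at these genes. The count was 0 without H replicate 2, 1 without HC replicate 2, 2 without C replicate 1, HH replicate 2, HH replicate 3 or HHC replicate 2, and 9 wider and 3 narrower without H replicate 3. It was 1 without centring, with equal numbers of peaks or with the replicate block. HC mice were also 8 weeks older than H mice, and HHC mice 8 weeks older than HH mice, so age and diet cannot be told apart in these contrasts. In HHC against HH none passed the limma test (0% of all promoters). At an unadjusted p under 0.05, 17 were wider and 50 narrower (1.18% and 3.48%, against 1.55% and 1.77% of all promoters). In this contrast 1 narrower or 1 wider passed without HHC replicate 2 or HHC replicate 3.

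To compare diet with control, genes were chosen in one cohort and tested in the other. The 3077 genes broad in at least 2 of the 4 controls of the 25-week cohort include all 1617 broad promoters, and 2571 of them had a peak in all libraries. In H against C, 80 of these were narrower (3.11%) and 0 wider, against 1.2% and 0.105% of all promoters tested, with medians of -0.25 and -0.02. Without centring, 1207 were narrower and 0 wider, and H coverage was the smaller. Plin4, a lipid droplet coat protein gene that shares its peak with Lrg1 and Plin5, measured 7819, 11371 and 9583 bp in C and 1094, 1017 and 622 bp in H (-2.59 ± 0.39 (SE), limma adjusted p = 0.00351). Scd1, stearoyl-CoA desaturase, measured 10409, 10518 and 12004 bp in C and 1135, 2155 and 1573 bp in H (-1.97 ± 0.31 (SE), limma adjusted p = 0.00351). Both lost most of their breadth in each H library while a peak remained.

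The narrower genes by list were 5 of 31 lipid genes (Plin4, Scd1, Gpd1, Thrsp and Fasn), 4 of 25 adipogenic transcription factors (Nfic, Klf15, Tle3 and Ebf2), 2 of 14 insulin genes (Irs1 among them), 2 of 6 adipokines (Vegfa and Rbp4), 3 of 8 Hox genes (Hoxc4, Hoxc5 and Hoxc6, which share a domain), Jund of 26 immediate early genes and Tet3 of 18 chromatin regulators. Irs1 measured 11526, 12167 and 11276 bp in C and 2014, 2008 and 648 bp in H (-2.24 ± 0.39 (SE), limma adjusted p = 0.00636). Klf15, a transcription factor induced by glucocorticoids, measured 9687, 11390 and 12170 bp in C and 1083, 841 and 1556 bp in H (-2.46 ± 0.44 (SE), limma adjusted p = 0.00708). Slc25a29, a mitochondrial carrier, measured 5854, 7417 and 3786 bp in C and 1269, 844 and 270 bp in H (-2.21 ± 0.34 (SE), limma adjusted p = 0.00351). H and C did not overlap at these genes. The count of narrower genes was 28 without C replicate 1, 12 without C replicate 2, 33 without C replicate 3 and 30 without H replicate 2.

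After weight loss in the 12-week cohort, 5 of the 2571 were narrower in HC than in CC_s and 1 wider, against 0.0816% and 0.0466% of all promoters. The narrower ones were Plin4, Arhgap23, Sh2b2, Pank3 and Igfals, and the wider one Card19. Plin4 measured 3142, 4619 and 9173 bp in CC_s and 2556, 1015 and 719 bp in HC (-1.94 ± 0.39 (SE), limma adjusted p = 0.0449). Pank3, which starts coenzyme A synthesis, measured 4815, 4171 and 7047 bp in CC_s and 2469, 992 and 2294 bp in HC (-1.44 ± 0.29 (SE), limma adjusted p = 0.0449). Groups were apart at both. These calls were lost (0) on leaving out any single C, CC_l, HH or CCC library, CC_s replicate 1 or 2, or HHC replicate 1, and were 13 narrower and 1 wider without HC replicate 1, 1 wider without HC replicate 2 and 3 narrower without HC replicate 3. None of the 6 passed without centring, with equal numbers of peaks or with the replicate block.

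The reverse choice took the 1149 genes broad in at least 3 of the 6 controls of the 12-week cohort, of which 1056 had a width in all libraries. None passed the limma test in HH against CC_l or in HHC against CCC (0% of all promoters in either). At an unadjusted p under 0.05, 12 were wider and 14 narrower in HH against CC_l (1.14% and 1.33%, against 1.96% and 0.723% of all promoters). The median was -0.10 against -0.03 over all promoters. In HHC against CCC these were 10 wider and 147 narrower (0.947% and 13.9%, against 2.68% and 3.56% of all promoters), with a median of -0.22 against -0.02. The lipid list had 26 of 28 genes below 0 and a median of -0.90, and leaving out HHC replicate 2 gave 4 narrower genes that passed and HHC replicate 3 gave 1 wider. Acly had the smallest adjusted p, with 11939 and 11775 bp in CCC and 5424, 5443 and 3782 bp in HHC (-1.42 ± 0.31 (SE), limma adjusted p = 0.224). Its groups lay apart, but in CC_l, the younger controls, it measured 5201 and 5670 bp, close to HHC.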

How the data were processed

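CUT&Tag peak lists of 84 libraries were used. Per the study's methods and the submitters' notes, the authors trimmed reads (Trim Galore 0.6.6), aligned them to GRCm38 (Bowtie2 2.4.4) and called peaks in each library with SEACR 1.3 (stringent, threshold 0.01), without pooling replicates. Each deposited list holds peak positions and their signal, which is unscaled coverage. A minimum number of reads per sample is stated, but neither read counts nor the depth of each library are given in the sources used here, so no count model was run, signal was not compared between libraries, and precision rests on the number of libraries. SEACR keeps the strongest signal blocks, so breadth and coverage move with depth and background.

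Peaks were set against GENCODE M21 starts (Python 3.11.15, pandas 2.3.3), and the widest peak in a gene's windows gave its width. Fits used limma 3.58.1 (R 4.3.3) over all 8 groups with a trend and were tested on simulated data. Contrasts compare a diet group with its age-matched control, or, for H3K4me3 width, a weight-loss group with the younger obese group of its cohort.

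The members, lists and tests were chosen with earlier results of these data known. Some genes that the naming rule covers are not reported here. Named genes are the 10 widest members, up to 6 per list by width, up to 4 (H3K27ac) or 3 (H3K4me3) per direction and contrast by p, list members that passed, the 6 promoters the study gives as examples, those nearest the width limit, those without H3K27ac or with H3K27me3 in controls, and peak sharers; others, and genes named in full among those that passed, were chosen after their values were seen. Alternatives were other width rules, window, pseudocount, centring, filter, equal peak numbers, a replicate block, the treatment field, each library left out and, added after seeing the data, quantile normalization.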

Additional observations from a re-analysis of the deposited data

How the results depend on the processing

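Breadth and H3K27ac coverage both moved with how much each library's peaks covered, and groups of 2 or 3 libraries gave counts that single libraries could change. With other width rules, 3737 genes were broad at 3000 bp, 779 at 5000 bp, 646 in 8 or more controls and 85 in all 10, and leaving out a control gave 1276 to 1617.

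For H3K27ac in H against C, 43 broad promoters passed. The count was 17 with a window of 2000 bp, 654 without centring, 266 without the filter, 16 with equal numbers of peaks, 26 with the replicate block, 19 with quantile normalization, and 5 to 77 on leaving out a library. The cause was not tested. Centring removes a shift shared by the promoters of a library, but does not restore peaks that were not called. In HC against CC_s (0 passed) equal peaks gave 2 and leaving out a library 0 to 2. In HH against CC_l (2) the smaller window gave 1, no centring 0, a pseudocount of 100 bp 0, the replicate block 1, and leaving out a library 0 to 3. In HHC against CCC (2) the smaller window gave 0, no centring 4, all higher, a pseudocount of 100 bp 0, no filter 6, the replicate block 6, and leaving out a library 0 to 234. The interaction H minus C against HH minus CC_l gave 2 with a pseudocount of 100 bp, and 0 on leaving out any library, and that of HC minus CC_s against HHC minus CCC 0 to 49.

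For H3K4me3 width in HC against H (4 passed), no centring, equal peaks and the replicate block gave 1 each and leaving out a library 0 to 12, and in HHC against HH 0 to 1. In H against C (80), no centring gave 1207, a peak in 2 libraries of every group 138, equal peaks 41, and leaving out a library 12 to 115. In HC against CC_s (6), no centring, equal peaks and the replicate block gave 0 each, the treatment field 2, and leaving out a library 0 to 14. In HH against CC_l leaving out a library gave 0 throughout, and in HHC against CCC 0 to 4.

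Reversed differences, none past the threshold, were Zfp36 (H3K27ac, H against C, -0.31) and Slfn5 (H3K4me3, H against C, -0.0071) without centring, and with the treatment field Rsrp1 (0.27) and Hoxa3 (-0.75) in HHC against HH and Rnf167 and Slc25a11 (-0.63 each), Rsrp1 (-0.76), Tmem88b (0.72), Tkt (0.42) and Cish (1.26) in HH against CC_l. Over the named genes, 3981 of the recomputed values kept their direction and side of the threshold, 930 were no longer past it, 30 were newly past it and 10 reversed. Same-numbered libraries deviated together in 1 of 18 pairs at a correlation over 0.1 (range -0.0554 to 0.227). Pairing by number was not shown, and so few libraries per group cannot exclude it.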

Other observations

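H3K4me1, a mark of enhancers, separated the cohorts at the broad promoters. A peak was present at 52.8% ± 12.2 (SD, n = 3) of them in C, 51.9% ± 4.86 (n = 3) in H, 47.1% ± 18.7 (n = 3) in CC_s and 50.6% ± 6.11 (n = 3) in HC. In the 25-week cohort the shares were 87.5% ± 1.62 (n = 2) in CC_l, 87.1% ± 3.18 (n = 3) in HH, 89.1% ± 6.03 (n = 2) in CCC and 91.4% ± 3.46 (n = 3) in HHC. At other promoters with H3K4me3 they were 12.2% to 18.7% and 43.2% to 65.7% by group. Age, cohort and library coverage cannot be told apart here.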
